A study of Mus musculus with 4 samples.

Results

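The genes described here encode 8 subunits of calcium, pacemaker and sodium channels. They are Cacna1c, Cacnb2 and Cacna2d1 of the L-type calcium channel, Cacna1g and Cacna1h of T-type calcium channels, Hcn2 and Hcn4 of the hyperpolarization-activated pacemaker channels, and the sodium channel auxiliary gene Scn4b. They were chosen by symbol from a table of raw read counts, and each of the 8 symbols matched 1 of its 38355 genes. Each of 4 untreated mice gave 1 library of RNA, taken from the free wall of the left ventricle. Wild-type mice (WT) and mice carrying the VSFP2.3 transgene (TG) gave 2 libraries each, all 4 from the same parents. VSFP2.3 is a fluorescent protein that reports membrane potential, and per the series title it was targeted to cardiomyocytes. The stated purpose was to look for toxicity of the transgene to the heart. The males, aged 35 weeks, gave WT 1 and TG 1, and the females, aged 19 weeks, gave WT 2 and TG 2, so sex and age cannot be told apart. Neither the promoter of the transgene nor the strain is given in the sources used here.

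Voltage-gated calcium channels open on depolarization. The L-type channel carries the calcium that triggers contraction of ventricular muscle, whereas T-type channels open at more negative potentials and are best known from pacemaker cells and from fetal or stressed ventricle. HCN channels open on hyperpolarization, carry the pacemaker current of the sinus node and are directly bound by cyclic AMP. Sodium channel beta subunits are small membrane proteins that change the gating and trafficking of the pore.

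The libraries held 14158440 to 16762713 counted reads. Levels are given in CPM, the count scaled to library size, with library sizes corrected by trimmed means, on which 1 count was worth 0.0608 to 0.0711 CPM. The ventricular light chain Myl2 stood at 7672 to 7948 CPM and the adult myosin Myh6 at 18360 to 32120 CPM, so transcripts of heart muscle were abundant. The labelled region, the free wall of the left ventricle, was not checked by markers. No transgene transcript was analysed here, so the genotype labels had no check by a targeted gene. WT 2 stood apart in make-up, with 89.9% of its counts in protein-coding genes against 96.7 to 97.4% in the other libraries, and with the atrial light chain Myl4 at 75.6 CPM against 0.711 to 1.16. Another atrial marker, Nppa, was lowest in WT 2, at 1057 CPM against 1556 to 4228, and so was the sum of 12 atrial markers, at 1478 CPM against at least 1832 in each other library, while without Nppa the sum was highest there, at 422 CPM against 207 to 276. Leukocyte markers split the libraries another way, with 17 markers summing to 1854 CPM in WT 1 and 1477 in TG 2 against 290.29 in WT 2 and 278 in TG 1. Nothing in the labels says whether libraries were made in batches.

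Genomic positions are those of the mm10 assembly in GENCODE vM21. Cacna1c lies on chromosome 6 (118587240 to 119196418), Cacnb2 on chromosome 2 (14603088 to 14987908) and Cacna2d1 on chromosome 5 (15934691 to 16374511). Cacna1g lies on chromosome 11 (94408391 to 94474198) and Cacna1h on chromosome 17 (25374285 to 25433783). Hcn2 lies on chromosome 10 (79716634 to 79736108), and Hcn4 (58823412 to 58863175) and Scn4b (45138395 to 45154152) both lie on chromosome 9. The exons of 6 of the 8 genes shared no base with another annotated gene. Cacna1h shared 1.62% of its exonic length with Tpsg1 on the opposite strand, which had 0 or 1 count per library. Cacnb2 shared 7.32% with 3 opposite-strand genes, of which Gm10849 and Gm13269 had 0 counts in every library and Gm10848 was not analysed here. Whether reads were counted by strand is not given in the sources used here.

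RefSeq start windows (build GRCm38.p6, 250 bases before to 50 after an annotated start) matched 6 of the 8 genes, in 9 windows. Those of Cacna2d1, Hcn2 and Scn4b are shown because Cacna2d1 and Scn4b had the smallest p-values of the 8 by genotype and by sex and age, and Hcn2 the largest fitted difference by genotype. Each is written 5′ to 3′ on the gene's strand, with every GC box (GGGCGG on either strand, runs of overlapping or adjoining boxes included) in capitals.
Cacna2d1, chr5:15934441-15934740, plus strand: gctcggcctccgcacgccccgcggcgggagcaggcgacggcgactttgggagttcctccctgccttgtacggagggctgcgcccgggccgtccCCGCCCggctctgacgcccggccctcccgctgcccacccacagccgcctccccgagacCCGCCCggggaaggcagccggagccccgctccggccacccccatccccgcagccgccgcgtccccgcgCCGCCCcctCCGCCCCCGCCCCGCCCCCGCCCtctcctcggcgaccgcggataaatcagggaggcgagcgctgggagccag
Hcn2, chr10:79716384-79716683, plus strand: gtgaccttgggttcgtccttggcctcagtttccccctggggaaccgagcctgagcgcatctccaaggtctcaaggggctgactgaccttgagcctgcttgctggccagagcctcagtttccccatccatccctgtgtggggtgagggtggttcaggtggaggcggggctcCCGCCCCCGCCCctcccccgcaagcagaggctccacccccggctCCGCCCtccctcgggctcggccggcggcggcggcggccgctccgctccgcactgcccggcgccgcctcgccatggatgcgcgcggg
Scn4b, chr9:45138374-45138673, plus strand: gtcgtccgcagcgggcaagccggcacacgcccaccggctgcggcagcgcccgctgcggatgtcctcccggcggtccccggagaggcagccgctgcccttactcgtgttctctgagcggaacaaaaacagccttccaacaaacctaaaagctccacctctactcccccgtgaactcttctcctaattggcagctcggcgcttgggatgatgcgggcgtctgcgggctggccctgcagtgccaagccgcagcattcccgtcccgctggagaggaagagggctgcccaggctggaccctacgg
The Cacna2d1 window held 7 GC boxes and was 80.0% G and C. The Hcn2 window held 3 boxes at 72.3%, and that of Scn4b held 0 at 66.3%. A GC box was found in 5 of the 9 windows of these genes, against 35.7% of 32851 windows of the same length genome-wide. A T-box site (AGGTGTGA, either strand) and a MEF2 site (CTA and TAG with 4 bases of any kind between, either strand) were found in 0 of the 9, against 1.28% and 3.69% of all windows. These matches describe letters in the windows only.

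Per kilobase of exons, the 8 genes spanned a wide range of levels in these ventricles. Scn4b was highest, at 37.0 ± 6.91 CPM per kilobase (SD over the 4 libraries, here and in the next sentences). Cacna1c followed at 24.9 ± 5.37 and Cacna2d1 at 22.5 ± 3.62. Cacnb2 stood at 8.25 ± 0.260 and Hcn2 at 7.95 ± 2.40. At the low end, Cacna1g stood at 1.07 ± 0.212, Hcn4 at 0.866 ± 0.175 and Cacna1h at 0.196 ± 0.0351. The ranges of the libraries overlapped for the neighbours Scn4b and Cacna1c, Cacna1c and Cacna2d1, Cacnb2 and Hcn2, and Cacna1g and Hcn4. They did not overlap between Cacna2d1 and Cacnb2, between Hcn2 and Cacna1g, or between Hcn4 and Cacna1h. The exonic length is that of all annotated exons of a gene, so a gene with long alternative exons reads low on this scale.

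**Figure D1:**
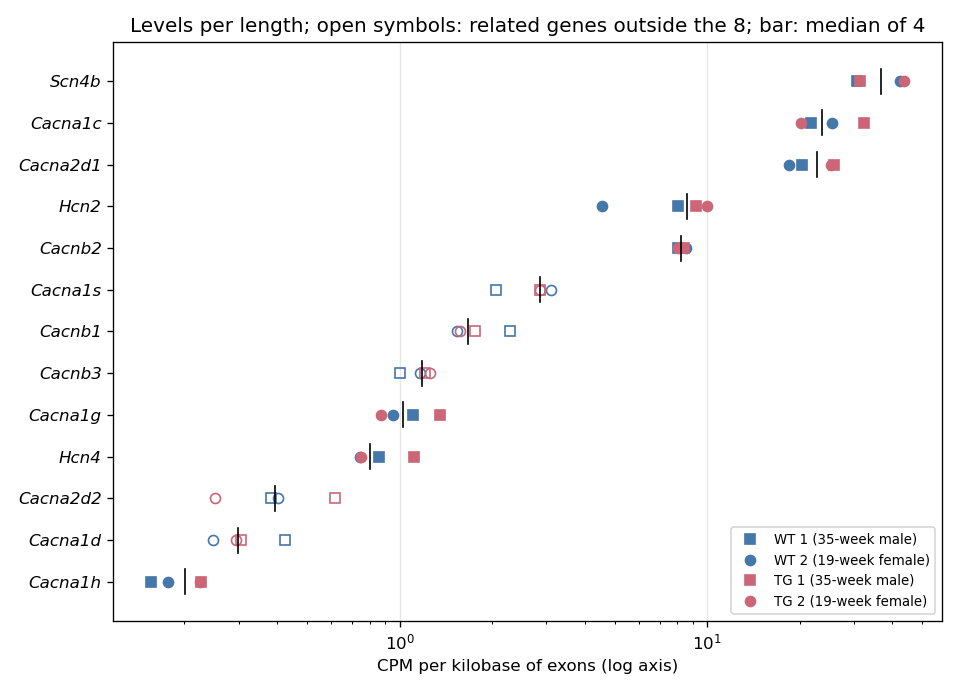
Level per kilobase of exons of each gene in each library, on a log axis, with the 8 genes in filled symbols and related subunit genes in open ones. Blue marks WT and red TG, squares mark the 35-week males and circles the 19-week females, and the bar is the median of the 4 libraries. Scn4b lies highest and Cacna1h lowest.

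Related subunits placed these levels within their families. The sodium channel beta subunit genes Scn3b and Scn2b had medians of 0.428 and 0.215 CPM per kilobase, below Scn4b. Among pacemaker channels, Hcn3 had 2 counts in each library and did not pass the filter on low counts. Other L-type pore genes were lower than Cacna1c, with Cacna1s, known from skeletal muscle, at 2.86 and Cacna1d, known from the sinus node, lower still. The beta genes Cacnb1 and Cacnb3 stood at 1.66 and 1.19, and the alpha-delta gene Cacna2d2 at 0.393, each below its relative among the 8.

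Between TG and WT hearts, none of the 8 genes passed the test. Cacna2d1, Hcn2 and Cacna1h, 3 of the 8, had higher levels in both TG hearts than in both WT hearts, against 10.3% of all genes. In the other 5 genes the TG and WT libraries overlapped. The quasi-likelihood test of edgeR, with p-values adjusted over 14189 genes by Benjamini and Hochberg's method, called 0 of the 8, where it called 0% of all genes, and DESeq2 and limma-voom called 0 of the 8 as well. At an unadjusted p below 0.05 it held 1 of the 8, Cacna2d1, against 0.698% of all genes. Fitted log2 differences were above 0 for 7 of the 8, with a median of 0.19, against 47.5% above 0 and a median of -0.01 over all genes. These counts describe the 8 genes and test nothing.

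**Figure D2:**
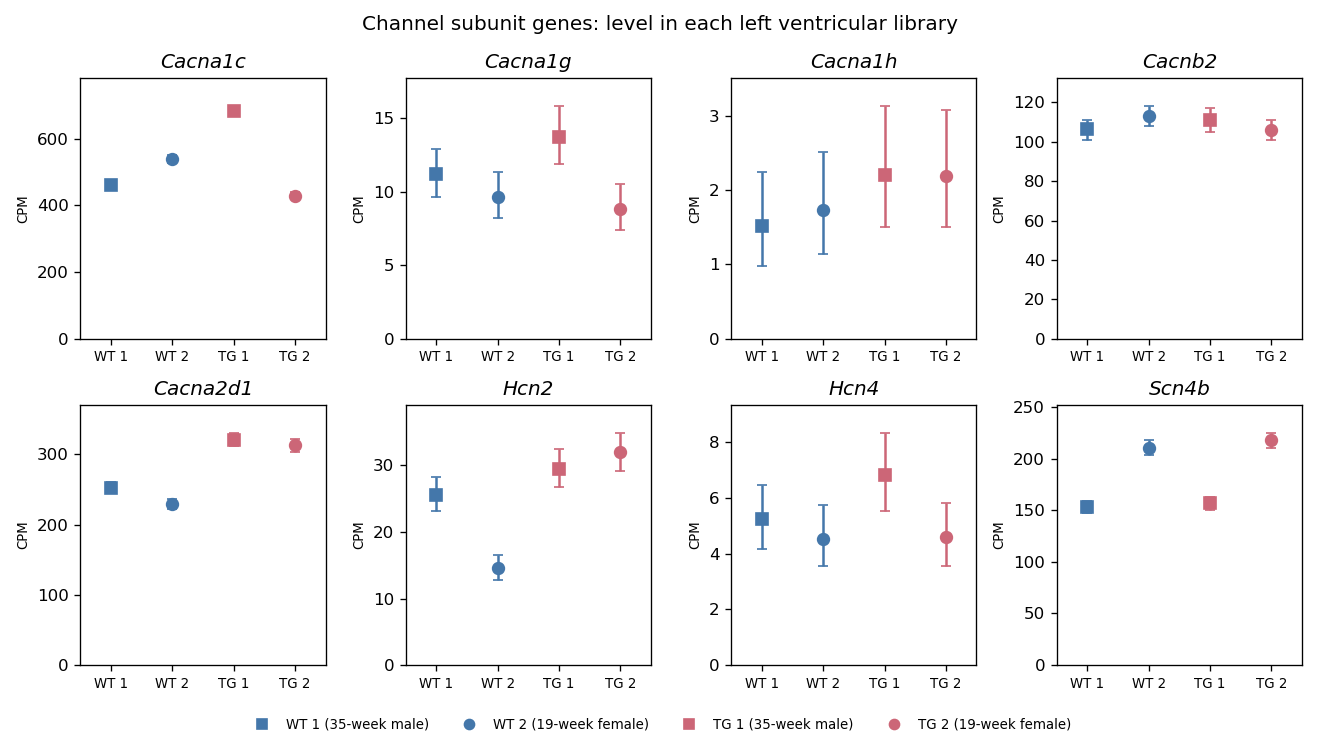
Level of each gene in CPM in each of the 4 libraries, with exact Poisson 95% intervals that cover counting error only. Blue marks WT and red TG, squares mark the 35-week males and circles the 19-week females. Cacna2d1 is higher in both TG libraries, Hcn2 is low in WT 2, Scn4b is higher in both females, and Cacnb2 lies between 106 and 113 CPM throughout.

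Cacna2d1 encodes the extracellular alpha-delta subunit of the L-type channel, which promotes its delivery to the membrane and is the target of gabapentin. It stood at 253 CPM in WT 1 and 229.65 in WT 2, against 321 in TG 1 and 313 in TG 2. Both TG libraries lay above both WT libraries, and the gap between genotypes was larger than the spread within either. The fitted log2 difference of TG over WT was 0.39 ± 0.14 (SE, 95% interval 0.03 to 0.76), with an unadjusted p of 0.0382 and an adjusted p of 1.00 by edgeR. The TG heart was higher in both pairs of the same sex and age, by 1.27-fold in the males and 1.36-fold in the females. The difference kept its sign when any 1 library was left out, at 0.33 to 0.47. With the replicate number as a block, however, edgeR's unadjusted p was below 0.05 for 0 of the 8 genes, Cacna2d1 included. The difference was 0.33 after the trend with exonic length was removed. Across 12827 protein-coding genes the log2 difference of TG over WT was larger in genes with longer exons (rho 0.23 by Spearman's method, across genes, which are no independent replicates), and Cacna2d1 has 12416 exonic bases.

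Hcn2, the main HCN gene of ventricular muscle, stood at 25.6 CPM in WT 1 and 14.6 in WT 2, against 29.4 in TG 1 and 31.9 in TG 2. WT 2 was the low library, and the other 3 lay within 25.6 to 31.9 CPM. The log2 difference was 0.61 ± 0.29 (95% interval -0.15 to 1.37, unadjusted p = 0.0925, adjusted p of 1.00 by edgeR), a size that exceeded 95.2% of all genes. It rested on WT 2, and was 0.26 without that library and 1.08 without WT 1. TG over WT was 1.15-fold in the male pair and 2.19-fold in the female pair. The part of the make-up of WT 2 in this value was not tested.

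Hcn4 encodes the main pacemaker channel of the sinus node and is a common marker of conduction tissue. Its levels were 5.23 CPM in WT 1 and 4.54 in WT 2, against 6.83 in TG 1 and 4.58 in TG 2. TG 1 was highest and TG 2 lay next to WT 2, so the genotypes overlapped. The log2 difference was 0.22 ± 0.30 (95% interval -0.56 to 1.00), and it turned to -0.09 without TG 1. Counts of 69 to 96 reads set wide counting intervals, such as 5.53 to 8.34 CPM in TG 1 and 4.18 to 6.46 in WT 1, which overlap. Conduction system markers (16 genes, Hcn4 not among them) summed to 163 CPM in WT 1, 235 in WT 2, 206 in TG 1 and 203 in TG 2, and the nodal gene Isl1 was at 0 counts in all 4. Their part in the Hcn4 level was not tested.

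On the per-kilobase scale, Hcn2 exceeded Hcn4 by 9.37-fold in WT 1, 6.15-fold in WT 2, 8.26-fold in TG 1 and 13.4-fold in TG 2. The TG to WT ratio of this proportion was 0.881 in the males and 2.17 in the females. The male and female pairs thus lay on opposite sides of 1, but with little to hold the male value below it. In the males the counting intervals of WT 1 and TG 1 overlapped for Hcn2 and for Hcn4. In the females the ratio rested on the low Hcn2 level of WT 2, at 14.6 CPM.

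Cacna1h and Cacna1g encode pores of T-type channels. Cacna1h was counted in only 25 and 27 reads in WT 1 and WT 2 and in 31 and 33 in TG 1 and TG 2, or 1.52 and 1.73 CPM against 2.21 and 2.19. Both TG values lay above both WT values, but every counting interval overlapped the others, from 0.984 to 2.24 CPM in WT 1 to 1.51 to 3.08 in TG 2. The log2 difference was 0.44 ± 0.35 (95% interval -0.48 to 1.35, adjusted p of 1.00 by edgeR).

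Cacna1g stood at 11.2 CPM in WT 1 and 9.66 in WT 2, against 13.7 in TG 1 and 8.83 in TG 2. TG 1 was the highest library and TG 2 the lowest. The log2 difference of TG over WT was 0.11 ± 0.27 (95% interval -0.60 to 0.82), and it was -0.24 without TG 1. Per kilobase, Cacna1g exceeded Cacna1h by 3.88- to 7.09-fold over the 4 libraries.

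The remaining genes showed overlapping genotypes. Cacna1c, the pore of the cardiac L-type channel, had a log2 difference of 0.15 ± 0.26 (95% interval -0.52 to 0.83) that became -0.22 without TG 1. Cacnb2, the cytoplasmic beta subunit that brings the pore to the membrane, stood at 106 CPM in WT 1 and 113 in WT 2, against 111 in TG 1 and 106 in TG 2. Its coefficient of variation over the 4 libraries was 3.15%, the lowest of the 8 genes, against 16.1 to 30.2% for the others. The log2 difference was -0.02 ± 0.14 (95% interval -0.37 to 0.34), so changes beyond these bounds lie outside its interval. Scn4b, whose product is a beta subunit linked to resurgent sodium current, had a log2 difference of 0.04 ± 0.25 (95% interval -0.60 to 0.69). By edgeR the adjusted p was 1.00 for all 3.

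**Figure D3:**
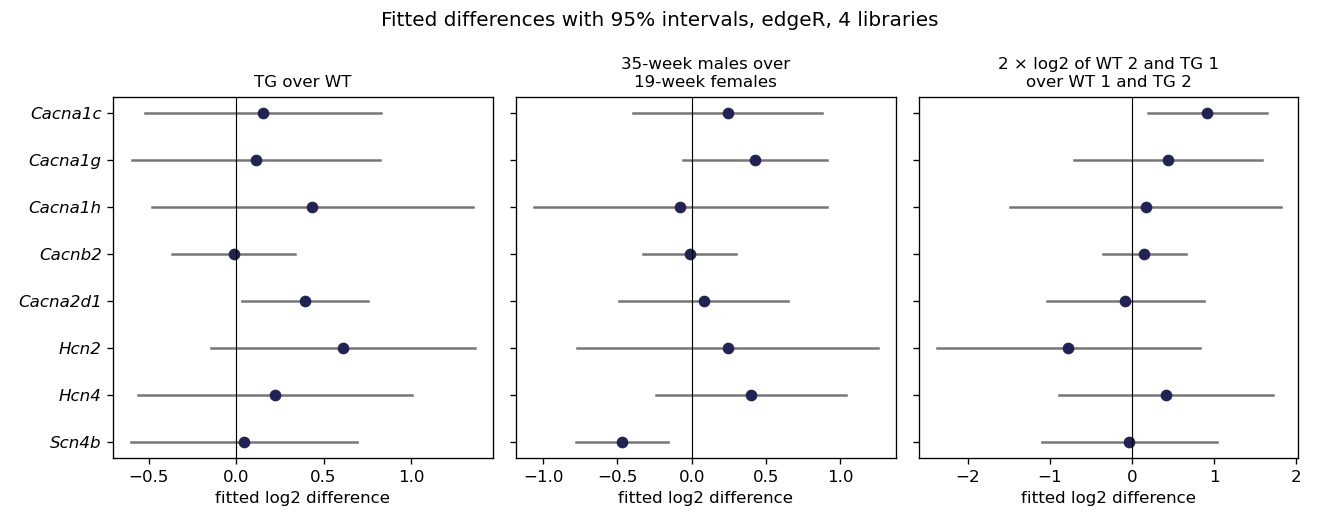
Fitted log2 differences (points) and 95% intervals (lines) from edgeR for TG over WT (left), the 35-week males over the 19-week females (middle) and the difference between the pairs (right), with 4 libraries in each fit. The interval lies off 0 for Cacna2d1 on the left, Scn4b in the middle and Cacna1c on the right, and none of these passed adjustment over all genes.

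The libraries of 3 of the 8 genes, Scn4b, Cacna1g and Hcn4, did not overlap between the males and the females, against 31.5% of all genes, and none of the 3 passed the test. Scn4b stood at 153 CPM in WT 1 and 157 in TG 1, the 35-week males, against 210.39 in WT 2 and 218 in TG 2, the 19-week females. Mice of the same sex and age differed by 1.02-fold in the males and 1.04-fold in the females, so the groups lay far apart relative to the spread within them. The fitted log2 difference of males over females was -0.47 ± 0.12 (95% interval -0.78 to -0.16), with an unadjusted p of 0.0121 and an adjusted p of 0.999 by edgeR, and DESeq2 gave an adjusted p of 0.289. It kept its sign and size when any 1 library was left out, at -0.50 to -0.44. With genotype as a covariate, however, edgeR's unadjusted p was below 0.05 for 0 of the 8 genes, Scn4b included.

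Cacna1g was higher in both males (11.2 and 13.7 CPM) than in both females (9.66 and 8.83), with a log2 difference of 0.43 ± 0.19 (95% interval -0.06 to 0.91). Hcn4 was likewise higher in the males, at 5.23 and 6.83 CPM against 4.54 and 4.58, with a log2 difference of 0.40 ± 0.24 (95% interval -0.24 to 1.04). For Cacna1g and Hcn4 alike, the counting interval of the male WT 1 overlapped those of both females. Neither passed the test, with an adjusted p of 0.999 by edgeR for each, and both values rested in part on TG 1, at 0.27 for Cacna1g and 0.19 for Hcn4 without it. In all, 0 of the 8 genes were called between males and females by edgeR, DESeq2 or limma-voom, where edgeR called 0.0282% of all genes, and 1 of the 8, Scn4b, had an unadjusted p below 0.05, against 3.62% of all genes. The other 5 genes had adjusted p-values of 0.999 by edgeR and fitted log2 differences of -0.08 to 0.24.

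Within the pairs, the TG to WT ratio of several genes differed between the males and the females. Cacna1c stood at 461 CPM in WT 1 and 684 in TG 1, but at 539 in WT 2 and 429 in TG 2. TG was 1.48-fold higher in the males, and in the females the TG to WT ratio was 0.794. Cacna1g and Cacnb2 also had opposite directions in the pairs, with ratios of 1.23 and 0.914 for Cacna1g and of 1.04 and 0.939 for Cacnb2. For Cacna1g and Cacnb2, however, the counting intervals of WT and TG overlapped within each pair, so these directions are not set apart from counting error. The other 5 genes were higher in TG in both pairs, with ratios that ran from 1.01 for Hcn4 in the females to 2.19 for Hcn2 in the females.

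**Figure D4:**
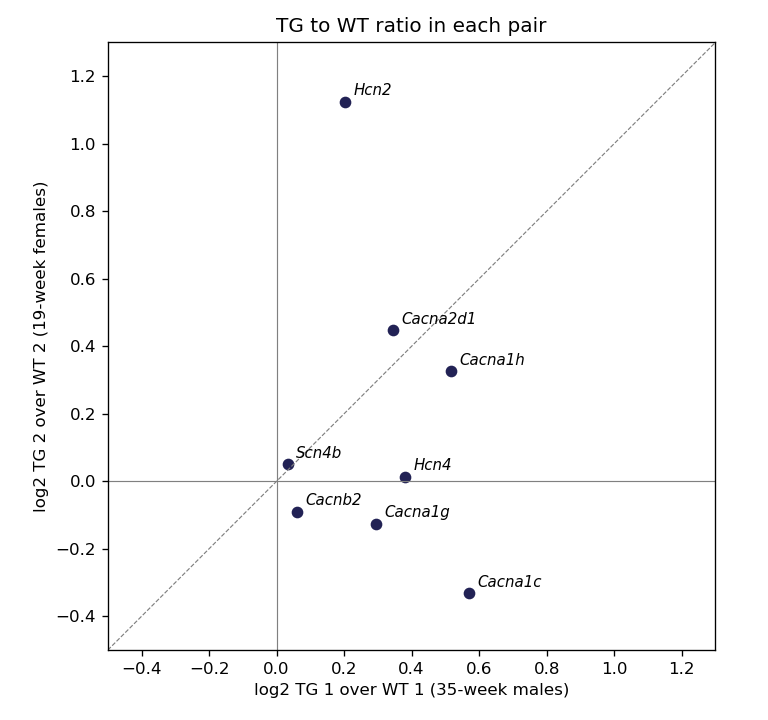
Log2 TG to WT ratio of each gene in the 35-week males (horizontal) and in the 19-week females (vertical), with 1 mouse per genotype in each pair and a prior count of 2. The dashed line marks equal ratios. Cacna2d1 and Scn4b lie near the line, Hcn2 lies above it, and Cacna1c, Cacna1g and Cacnb2 lie below 0 in the females only.

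The difference between the pairs was tested with the interaction as the only term, which sets WT 2 and TG 1 on one side and WT 1 and TG 2 on the other. The fitted coefficient is 2 times the log2 ratio of the sides. For Cacna1c it was 0.92 ± 0.30 (95% interval 0.19 to 1.65), with an unadjusted p of 0.0210 and an adjusted p of 0.211 by edgeR. The value was 0.41 after the trend with exonic length was removed (rho 0.285 over 12827 protein-coding genes), and Cacna1c, with 21191 exonic bases, has the most of the 8. Summed leukocyte markers were high in WT 1 and TG 2, as given above, where Cacna1c was low. Ventricular cardiomyocyte markers (13 genes) summed to 139250 CPM in WT 1, 185770 in WT 2, 220570 in TG 1 and 145540 in TG 2. Ttn, the gene of the giant titin protein, made up most of this spread, and without it the sums were 77593, 88841, 102410 and 82277 CPM in the same order. Both WT 1 and TG 2 lay below both other libraries in 7 of the 13 genes, against 22.9% of all genes. Their part in the Cacna1c value was not tested. In tissue RNA, fewer cells of a type and less RNA per cell cannot be told apart.

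For the other 7 genes this coefficient lay between -0.78 for Hcn2 and 0.44 for Cacna1g, with adjusted p-values of 0.633 to 0.985 by edgeR. EdgeR, DESeq2 and limma-voom each called 0 of the 8, where edgeR called 2.72% of all genes. An unadjusted p below 0.05 was found for 1 of the 8, Cacna1c, against 16.2% of all genes.

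With 4 values, every gene without ties separates the libraries without overlap in exactly 1 of 3 ways. Genotype was that way for 3 of the 8 genes (Cacna2d1, Hcn2 and Cacna1h, all higher in TG), against 21% of all genes, and 10.3% in that direction. Sex and age was the way for 3 (Cacna1g and Hcn4 higher in males, Scn4b lower), against 31.5%, of which 15.5% higher and 15.9% lower in males. A crossed split, WT 1 with TG 2 and WT 2 with TG 1, was the way for 2 (Cacna1c and Cacnb2, both lower in WT 1 and TG 2), against 47.5%, and 22.9% in that direction. Cacnb2 spanned 106 to 113 CPM, and the counting intervals of its 4 libraries all overlapped. Of the L-type subunits, Cacna1c and Cacnb2 thus fell under the same split and Cacna2d1 under another. Per kilobase the proportion of Cacna1c to Cacna2d1 was 1.07 in WT 1, 1.38 in WT 2, 1.25 in TG 1 and 0.802 in TG 2. That of Cacna1c to Cacnb2 was 2.71, 2.98, 3.85 and 2.52 in the same order. Per kilobase, Cacna1c exceeded the sum of Cacna1g and Cacna1h by 17.3- to 22.5-fold in the 4 libraries, with other L-type and T-type pore genes left out.

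Other channel genes and partners were examined as lists. Between TG and WT, edgeR called 0 genes of any list. Fitted log2 differences were above 0 for 10 of 10 other sodium channel genes tested (median 0.10), among them Scn10a, a pore gene of sensory neurons, at 0.81 ± 0.35. Other L-type subunits were above 0 in 4 of 9 (median -0.17, Cacna2d3 0.69 ± 0.61, Cacnb1 -0.20 ± 0.27), and the other pore gene tested, Cacna1a, was at -0.19 ± 0.24. L-type partners and regulators were above 0 in 8 of 18 (median -0.02), with Rrad, which encodes an inhibitor of the L-type channel, at -0.43 ± 0.29 and the anchoring gene Akap5 at -0.27 ± 0.20. HCN channels and partners were above 0 in 8 of 11 (median 0.10), with the cyclase Adcy6 at 0.32 ± 0.17 and Cav3, which encodes muscle caveolin, at -0.24 ± 0.14.

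Sodium channel partners were above 0 in 8 of 15 (median 0.00), with the anchoring ankyrin Ank2 at 0.52 ± 0.17 and Fgf13, whose product binds sodium channels, at 0.45 ± 0.22. Transcription factors of channel and conduction genes were above 0 in 18 of 24 (median 0.12), with Tbx5 at 0.40 ± 0.15 and Zfhx3 at 0.72 ± 0.41. The values of all genes in these sentences are log2 differences of TG over WT ± SE, each with an adjusted p of 1.00 by edgeR.

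For the difference between the pairs, edgeR called 0 genes of the 7 channel and partner lists. Scn4a, the sodium channel pore of skeletal muscle, stood at 44.9 CPM in WT 1, 63.9 in WT 2, 70.7 in TG 1 and 47.3 in TG 2 (adjusted p = 0.0734 by edgeR). Its libraries thus separated another way than those of Scn4b, which separated by sex and age. Among partners, Gja1, the main ventricular connexin, stood at 627 CPM in WT 1 and 525 in TG 2, below the 844 of WT 2 and the 825 of TG 1. Trpm4, a cation channel gene, ran the same way, at 11.7 CPM in WT 1, 19.4 in WT 2, 22.5 in TG 1 and 14.6 in TG 2. Other genes of low p in these lists were Cacng6 (adjusted p = 0.144), Adcy1 (0.169), Nedd4l (0.171), Tbx3 (0.108), Nkx2-5 (0.113), Jph2 (0.256) and Ppp1r12b (0.267), all by edgeR. Of these, Nkx2-5 ran the other way, at 49.7 CPM in WT 1 and 50.5 in TG 2, above the 34.9 of WT 2 and the 37.9 of TG 1. In either direction, 47.5% of all genes separated WT 1 and TG 2 from WT 2 and TG 1.

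Marker lists for other cells were read in the same way. For the difference between the pairs, 13 of 15 leukocyte markers tested were called, all lower in WT 2 and TG 1, as was Nppa among atrial markers, and Notch3 and Vwf were called in the opposite direction among smooth muscle and endothelial markers. Between TG and WT and between males and females 0 markers were called by edgeR. Summed smooth muscle and pericyte markers lay at 3887 to 4466 CPM, fibroblast markers at 3587 to 4131, endothelial markers at 1662 to 2133 and nerve markers at 107 to 123. Des had the highest mean of the smooth muscle list. Without it the sums were 2593 CPM in WT 1, 2037 in WT 2, 3050 in TG 1 and 2640 in TG 2. Most of the nerve sum was Scn7a, without which it was 25.8 to 30.4 CPM.

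Genes whose levels over the 4 libraries ran closest to the median profile of the 8 were the transporter Slc16a10, Sepn1, which encodes selenoprotein N, the SUMO protease Senp1, Dph6 and Zfp709. Their Euclidean distances from that profile, in centred log2 CPM over 4 libraries, were 0.0585 to 0.0757. The profile itself stood at -0.08 in WT 1, -0.13 in WT 2, 0.24 in TG 1 and 0.07 in TG 2, so it was highest in TG 1. The likeness rests on 4 libraries and says nothing of shared function.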

How the data were processed

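Libraries were stranded total RNA (TruSeq) read on a HiSeq2000, per the labels' protocols. The authors deposited raw counts of reads per Ensembl gene. A second deposited table, of normalized signal, is the raw table over 1 divisor for each library (0.917 to 1.08) and entered no test. HTSeq 0.6.1, STAR 2.3.0 and DESeq are among the tools, and mm10 is the build, per the submitters' processing notes.

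The count table went through edgeR 4.0.16 under R 4.3.3 (filterByExpr with a minimum count of 10, TMM factors of 0.934 to 1.06, quasi-likelihood test, Benjamini-Hochberg adjustment, threshold 0.05), which left 14189 genes, all 8 described here among them. Alternatives included limma-voom (limma 3.58.1) and DESeq2 1.42.0. Intervals are 95% intervals of the fitted values. The steps were tested on simulated counts with larger fold changes than those fitted between TG and WT in these 8 genes. That test does not bear on differences as small as theirs. Every p-value weighs a fitted difference against the variation among these 4 mice, estimated in part from all genes together. As each genotype had 2 mice, that variation is known only loosely. Poisson intervals cover counting error only.

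The 8 genes and all lists were chosen with earlier results of these data known. All 8 were named whatever their values, and from each list the genes of smallest p in TG against WT and in the pair difference, with close paralogues of the 8 and the 5 genes nearest to their median profile. Single markers beyond this rule (Myl2, Myh6, Isl1) were named after their values were seen. Some genes that the rule would name are not reported here.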

Additional observations from a re-analysis of the deposited data

How the results depend on the processing

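None of the 8 genes was called under the 240 of 264 gene-level alternatives that gave an adjusted p, and removal of the length trend gave none. Over all genes, the 0 called between TG and WT became 3 with DESeq2 and 0 to 8 when 1 library was left out. The 386 called for the difference between the pairs became 703 with DESeq2, 261 with limma-voom, which stayed within 1.5 times, 908 without the filter on low counts and 44 to 366 with 1 library left out. The 4 called between males and females became 33 with DESeq2, 7 without the filter, 0 with genotype as a covariate and 0 to 9 with 1 library left out.

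Of 24 fitted log2 differences, 16 changed sign when some library was left out. For the difference between the pairs, 1 pair has no TG to WT ratio once a library is left out. Such fits, here and above, set a single library against the 2 of the other side, which is not the same quantity. For TG over WT the ranges were -0.22 to 0.45 for Cacna1c, -0.24 to 0.40 for Cacna1g, -0.058 to 0.033 for Cacnb2, -0.090 to 0.48 for Hcn4 and -0.21 to 0.29 for Scn4b. For the difference between the pairs they were -0.10 to 0.91 for Cacna1g, -0.32 to 0.73 for Cacna1h, -0.60 to 0.36 for Cacna2d1, -1.96 to 0.067 for Hcn2, -0.22 to 0.95 for Hcn4 and -0.50 to 0.52 for Scn4b. For males over females they were -0.075 to 0.50 for Cacna1c, -0.37 to 0.17 for Cacna1h, -0.056 to 0.030 for Cacnb2, -0.13 to 0.32 for Cacna2d1 and -0.22 to 0.92 for Hcn2. Of 168 other alternatives 2 changed sign, both for the difference between the pairs after removal of the length trend, at -0.086 for Cacna1h and -0.20 for Cacnb2.

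Samples that share a number share sex and age, with no shared litter or day in the labels, and their deviations from the group means correlated at -0.447 over 14189 genes. With the replicate number as a block, edgeR called 0 genes and gave log2 differences of 0.40 for Cacna2d1 and 0.66 for Hcn2. Low counts of Cacna1h and Hcn4 set wide counting intervals.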
